A study of Mus musculus with 12 samples.

Results

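The annulus fibrosus (AF) of mice haploinsufficient for TonEBP, the transcription factor encoded by Nfat5, was compared with that of wild-type (WT) mice. The arrays were chosen by their tissue and genotype labels: 3 AF WT and 3 AF TonEBP +/- samples, 6 of the 12 arrays in the series. All 6 mice were 12 months old and of C57BL/6 background, and the labels name no treatment. AF was dissected from the lumbar discs between L1 and S1, and the pooled AF of 1 animal made 1 sample. The labels give no sex, litter, batch or animal number and do not say how the TonEBP allele was made. They name no promoter or Cre that would limit the allele to the disc. RNA was read on Clariom S Mouse arrays, which give each gene a log2 signal over all of its probes, so that 1 unit is a 2-fold difference. Signals of different genes cannot be ranked against each other, since each probe set has its own brightness.

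The AF is the fibrous outer ring of the intervertebral disc. Its outer lamellae are rich in type I collagen, its inner part is closer to cartilage and holds more type II collagen and aggrecan, and it is anchored to the cartilage endplates and the vertebral bone. TonEBP, also known as NFAT5, is the transcription factor with which cells adapt to high osmolarity: it enters the nucleus under hypertonic conditions and activates genes for osmolyte transporters and enzymes and for chaperones. Disc cells live in an osmotically loaded matrix because the negative charges of aggrecan hold cations and water. The question of the comparison, per the series title, is how reduced TonEBP bears on matrix, cytoskeletal and inflammatory genes in the ageing disc.

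The TonEBP +/- AF had less signal for aggrecan (Acan) and for the secreted protease Htra1, and more for bone sialoprotein (Ibsp), than WT AF. These 3 clusters were the calls among 22206 tested (limma, Benjamini-Hochberg adjusted p under 0.05). That is 0.0135% of clusters in either direction, 0.00450% higher and 0.00901% lower in TonEBP +/-. Around them, many bone matrix and neutrophil genes and some osteoclast genes read higher on all 3 TonEBP +/- arrays, without passing the test. The median differences of the cartilage and AF marker lists were below 0. At an unadjusted p under 0.05, 1851 clusters (8.34%) were higher and 1963 (8.84%) lower. In 2231 clusters (10.0%) all 3 TonEBP +/- arrays lay above all 3 WT arrays, and in 2730 (12.3%) they lay below. Of these non-overlapping clusters 44.97% were thus higher, and 55.38% were when the arrays were given equal medians and interquartile ranges. These shares are the background against which each count below is read. They depended on signal level. Of the 9235 clusters above the level of background probe sets on all 3 arrays of a genotype, 1725 lay higher and 1283 lower without overlap. Their median difference was 0.18, against -0.04 over all clusters. At an unadjusted p under 0.05, 1572 of these brighter clusters were higher and 1177 lower. Of the 9906 above that level on no AF array, 317 lay higher and 1171 lower, with a median difference of -0.14. Lists of mostly brighter members are read against the 9235. The p-values measure the spread between these samples, which come from 3 mice a genotype.

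The 6 arrays did not have the same spread. The interquartile range of the log2 signals was 2.45, 2.36 and 2.51 on WT arrays 1 to 3 and 2.66, 2.40 and 3.11 on TonEBP +/- arrays 1 to 3. TonEBP +/- array 3 was the widest, while TonEBP +/- array 2 lay within the WT range. The control probe sets followed the same order: the chance that an exon control exceeded an intron control was 0.701, 0.688 and 0.710 on the WT arrays and 0.747, 0.698 and 0.794 on the TonEBP +/- arrays. The median difference, TonEBP +/- minus WT, was 0.31 log2 over exon controls and -0.21 over intron controls, or 0.14 and -0.11 without TonEBP +/- array 3. Exon controls lay higher on all 3 TonEBP +/- arrays in 17.5% of 1324, and intron controls lay lower in 12.1% of 5222. The first principal component held 55.1% of the variance, with scores from -49.5 to -26.8 in WT and of 32.9, -12.7 and 93.2 in TonEBP +/-. Of the clusters that lay higher on all TonEBP +/- arrays, array 3 was farthest from WT in 76.9% and array 2 nearest in 62.5%. Of those that lay lower, the shares were 62.0% and 61.8%. Control separation was above the WT range on TonEBP +/- arrays 1 and 3, and genotype and separation cannot be told apart on these 6 arrays.

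**Figure D1:**
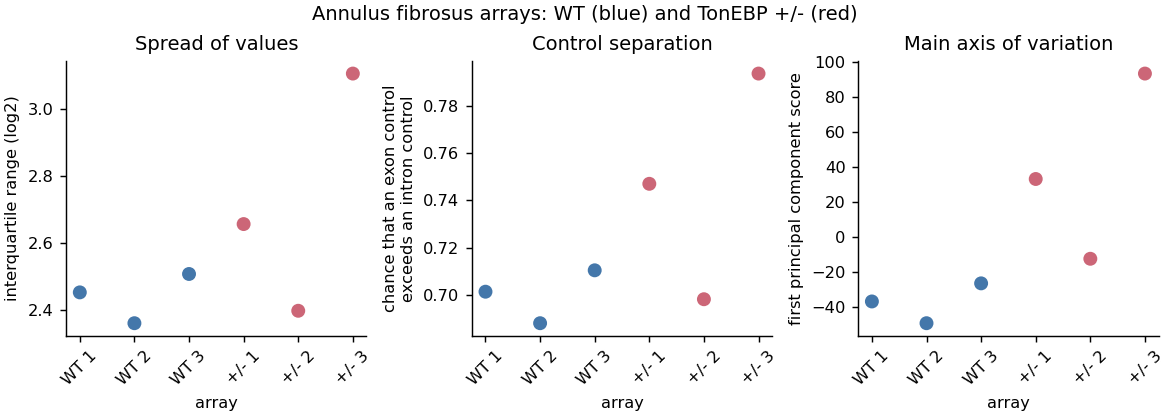
Interquartile range of the log2 signals, separation of exon from intron controls, and first principal component score on each of the 6 AF arrays, WT in blue and TonEBP +/- in red; each point is 1 array. TonEBP +/- array 3 is the highest in every panel (3.11 log2, 0.794 and 93.2), and TonEBP +/- array 2 lies among or close to the WT arrays.

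The label of the tissue was checked against marker genes. Of 13 measured AF and tendon markers, 8 were above background on all 3 arrays of a genotype, among them Fmod, Comp, Thbs4 and Thbs2. Background here means the 95th percentile of 23 background probe sets on the same array. The tendon and ligament transcription factors Scx and Mkx and the tendon glycoprotein Tnmd were not above background on any AF array. Markers of other tissues were present too. All 17 measured neutrophil and myeloid precursor markers were above background, as were 10 of 11 erythroid, 10 of 16 osteoclast and 10 of 16 NP (nucleus pulposus) and notochord markers. Of 22 skeletal muscle markers 3 were above background. With tissue of several cell types, fewer cells of a type and less RNA per cell cannot be told apart in any result below.

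WT array 1 stood apart from the other WT arrays. Its mean signal over 16 NP markers was 10.23, against 8.99 and 9.03 on WT arrays 2 and 3 and 8.87 to 9.26 on the TonEBP +/- arrays. Car3, a carbonic anhydrase abundant in NP cells, read 18.17, 14.26 and 13.37 on the WT arrays and 12.70, 13.65 and 14.14 on the TonEBP +/- arrays. Only WT array 1 was high. Its mean over 25 cartilage genes was 10.60, against 12.14 and 12.46 on the other WT arrays and 10.57 to 11.31 in TonEBP +/-. WT array 2 in turn had the lowest mean for the mineralisation, osteoclast and type I collagen lists. Its signal of Col1a1 was 10.92 and that of the osteoclast protease Ctsk was 7.18, which is below background.

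Nfat5 itself read 7.70, 8.69 and 9.93 on WT arrays 1 to 3 and 8.91, 8.94 and 8.74 on the TonEBP +/- arrays. The 3 TonEBP +/- arrays lay close together and inside the WT range, and WT array 1 was not above background. The difference was 0.09 log2 (SE 0.46, 95% interval -0.93 to 1.11, adjusted p = 0.944 in limma), so no loss of Nfat5 RNA was detected by this probe set, and the interval ends just short of a 2-fold reduction. Where its probes lie relative to the altered part of the gene is not given in the sources used here, so the value checks neither the allele nor the labels.

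**Figure D2:**
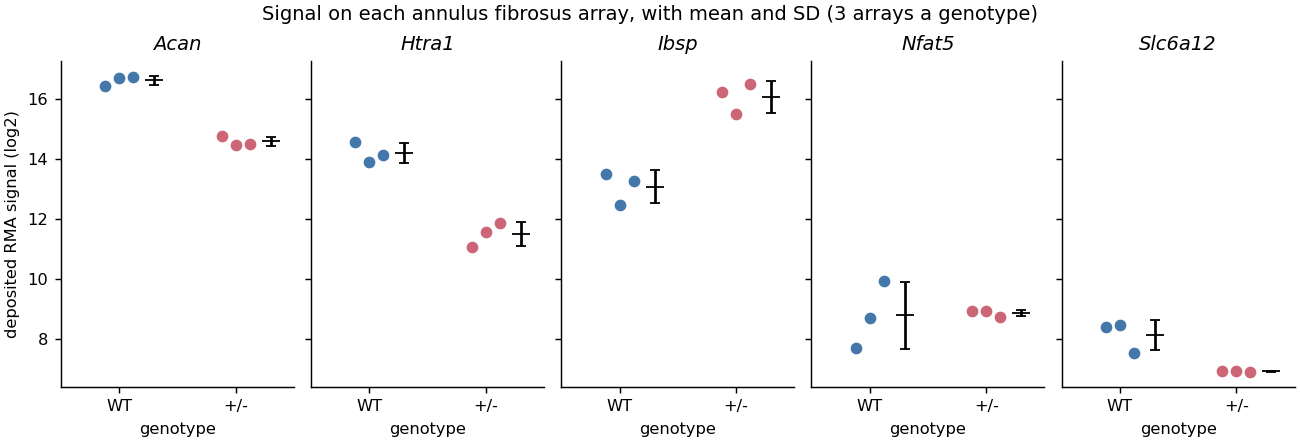
Deposited log2 signal of Acan, Htra1, Ibsp, Nfat5 and Slc6a12 on each AF array (WT blue, TonEBP +/- red; points are arrays, bars are the mean and SD of 3). The genotypes do not overlap for Acan, Htra1, Ibsp and Slc6a12, and TonEBP +/- lies inside the WT range for Nfat5.

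Genes that TonEBP is known to activate, and other osmoprotective genes, went in both directions. Of 14 measured, none passed limma's adjusted test; 1 was higher and 1 lower at an unadjusted p under 0.05. All 3 TonEBP +/- arrays lay above WT in 4 and below in 1, and the median difference was 0.13 log2, against -0.04 over all clusters, and 0.04 without WT array 1. The lower gene was Slc6a12, which encodes the betaine transporter BGT1. It read 8.38, 8.45 and 7.54 on the WT arrays and 6.92, 6.94 and 6.89 on the TonEBP +/- arrays (difference -1.21, SE 0.30, adjusted p = 0.110). Its signal was above background on 2 WT arrays and on no TonEBP +/- array, so WT was at least 1.16-fold above the TonEBP +/- background level. Slc6a6, the taurine transporter, read 13.25, 12.85 and 13.71 in WT and 12.75, 12.90 and 12.55 in TonEBP +/-, and the genotypes overlapped (-0.54, SE 0.29, adjusted p = 0.370). Hspa4l, a chaperone of the Hsp110 family, was the higher gene, at 7.66, 7.31 and 7.41 in WT and 8.49, 7.81 and 9.03 in TonEBP +/- (adjusted p = 0.164). It was not above background on any WT array or on TonEBP +/- array 2, and TonEBP +/- was at least 1.53-fold above the WT background level. The paralogs Hspa1a and Hspa1b, whose near-identical transcripts the probes may not separate, differed by 0.50 (SE 0.33) and 0.29 (SE 0.31). Lcn2 was at the top of the scale on all 6 arrays and gives no difference. Slc5a3 and Akr1b3 were not analysed here.

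Acan encodes aggrecan, the large proteoglycan whose sulphated chains hold water in cartilage and disc. It read 16.44, 16.69 and 16.71 on WT arrays 1 to 3 and 14.76, 14.47 and 14.50 on TonEBP +/- arrays 1 to 3. Each genotype was tight, with an SD of 0.15 in WT and 0.16 in TonEBP +/-, and the gap between them was many times these SDs. Acan fell by 2.03 on the log2 scale (SE 0.25, adjusted p = 0.0474), which is 4.09-fold.

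Htra1 encodes a secreted serine protease that cleaves matrix proteins such as fibronectin and is abundant in cartilage and disc. Its signal was 14.55, 13.90 and 14.12 in WT against 11.05, 11.55 and 11.87 in TonEBP +/-. The lowest WT array lay above the highest TonEBP +/- array by several times the spread within a genotype. Htra1 fell by 2.70 (SE 0.30, adjusted p = 0.0474), or 6.51-fold.

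Ibsp encodes bone sialoprotein, an acidic glycoprotein of mineralising bone matrix made by osteoblasts and hypertrophic chondrocytes. It read 13.48, 12.46 and 13.26 in WT and 16.21, 15.48 and 16.50 in TonEBP +/-. All TonEBP +/- arrays were high and the lowest of them lay above every WT array. Ibsp rose by 3.00 (SE 0.36, adjusted p = 0.0474), or 7.99-fold.

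The 3 calls had the smallest p of all clusters in limma. A gap that is wide against the spread within a genotype thus follows from how they were chosen. They stood close to the threshold. None of the 3 passed when array medians were subtracted (adjusted p = 0.0896), when only clusters above background on 3 or more AF arrays were tested (0.0571), or when WT array 2, WT array 3, TonEBP +/- array 1 or TonEBP +/- array 3 was left out (0.0526 to 0.29). Neither did they with control separation as a covariate (0.157). Ibsp also missed with equal medians and interquartile ranges (0.0527), and Acan without WT array 1 (0.0527). Over all settings tried adjusted p ran from 0.000162 to 0.29 and no direction changed.

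The promoter windows of the called genes are shown beside that of Slc6a12, since TonEBP binds TonE sites built on the core TGGAAA. Each window runs from 250 bases before to 50 after the transcription start in RefSeq (GRCm38.p6), and all 4 lie on the plus strand. They are Acan at chr7:79052976-79053275, Htra1 at chr7:130935953-130936252, Ibsp at chr5:104299037-104299336 and Slc6a12 (the first of its 5 windows) at chr6:121342324-121342623. Capitals mark the core TGGAAA, searched on both strands.
Acan: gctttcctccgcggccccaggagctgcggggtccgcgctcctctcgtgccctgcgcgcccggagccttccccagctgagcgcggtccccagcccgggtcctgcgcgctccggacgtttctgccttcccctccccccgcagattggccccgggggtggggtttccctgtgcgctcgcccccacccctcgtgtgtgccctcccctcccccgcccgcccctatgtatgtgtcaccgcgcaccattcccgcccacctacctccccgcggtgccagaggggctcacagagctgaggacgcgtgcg
Htra1: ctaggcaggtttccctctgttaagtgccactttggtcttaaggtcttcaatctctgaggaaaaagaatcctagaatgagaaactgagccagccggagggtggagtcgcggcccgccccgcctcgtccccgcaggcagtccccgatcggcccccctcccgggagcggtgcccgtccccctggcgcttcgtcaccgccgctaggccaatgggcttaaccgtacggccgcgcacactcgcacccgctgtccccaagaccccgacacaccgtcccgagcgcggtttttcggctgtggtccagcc
Ibsp: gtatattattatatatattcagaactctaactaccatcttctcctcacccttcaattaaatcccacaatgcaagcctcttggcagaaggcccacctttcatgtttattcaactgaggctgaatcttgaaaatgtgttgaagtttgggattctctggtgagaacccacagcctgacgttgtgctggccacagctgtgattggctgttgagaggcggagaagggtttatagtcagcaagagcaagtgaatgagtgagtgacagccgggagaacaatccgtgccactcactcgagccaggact
Slc6a12: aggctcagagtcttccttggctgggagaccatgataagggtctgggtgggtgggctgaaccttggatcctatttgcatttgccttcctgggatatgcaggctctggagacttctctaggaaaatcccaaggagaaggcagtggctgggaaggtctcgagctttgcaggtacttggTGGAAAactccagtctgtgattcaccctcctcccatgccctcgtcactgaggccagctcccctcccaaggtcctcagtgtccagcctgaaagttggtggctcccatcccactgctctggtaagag
The Acan, Htra1 and Ibsp windows hold no such letters. The Slc6a12 window holds 1 core, at position -75 from the start, which is also its match to the TonE consensus. The other 4 windows of Slc6a12 hold neither the core nor the consensus. Over all 32851 RefSeq windows of this length, 21.43% held the core on either strand and 4.96% the TonE consensus. Of 17 windows of 13 genes of the TonEBP target list, 3 held the core. A match is a run of letters and not a measured site, and sites outside these windows were not searched.

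After the calls, genes that did not pass were named in order of p, each with an adjusted p of 0.0961. Only genes with non-overlapping genotypes, a difference of at least 1 log2 and signal above background in a genotype were taken. Their ranks of p over all clusters ran from 4 to 54. Among those higher in TonEBP +/-, the collagenase Mmp13 read 11.66, 11.01 and 10.49 in WT and 15.29, 13.19 and 15.26 in TonEBP +/- (difference 3.53, SE 0.53). Tenascin C (Tnc), a matrix glycoprotein of developing and injured tissue, read 12.49, 9.48 and 11.75 against 14.98, 14.60 and 15.49 (3.78, SE 0.62). The lack of overlap in both follows from how they were chosen, and WT array 2 was far below the other WT arrays for Tnc. Several of the others are genes of blood cells. Sirpa, a receptor of myeloid cells, differed by 1.78 (SE 0.27). Itgam, the integrin alpha chain CD11b, read 14.76, 13.69 and 14.24 against 15.92, 15.96 and 16.40. The antimicrobial peptide gene Camp differed by 2.11 (SE 0.34). B2m, the light chain of MHC class I, read 15.59, 14.98 and 15.87 against 17.43, 17.27 and 18.53, with TonEBP +/- array 3 the highest. Olfml3, a secreted matrix glycoprotein, differed by 2.70, and Tcn2, which carries cobalamin, by 1.78. The spindle checkpoint gene Bub3 read 11.02, 11.10 and 11.00 against 12.46, 12.53 and 12.93, with a narrow spread in both genotypes. Creb3l1, a transcription factor that drives collagen genes in osteoblasts, was below background on the WT arrays and at least 2.80-fold higher in TonEBP +/-.

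Among those lower in TonEBP +/-, fibromodulin (Fmod), a small proteoglycan that regulates collagen fibrils in AF and tendon, read 14.51, 14.78 and 14.65 in WT and 13.08, 12.00 and 12.55 in TonEBP +/- (-2.11, SE 0.31). Fhl1, a LIM-domain protein, read 12.20, 12.46 and 12.33 against 10.10, 10.40 and 10.78 (-1.91, SE 0.27). For both genes the WT arrays lay close together, and the lack of overlap again follows from how they were chosen. Ndufa4l2, a mitochondrial protein induced by hypoxia, differed by -2.11, the BMP antagonist Grem1 by -2.09 and the matricellular gene Smoc1 by -1.66. Sbsn, a secreted epithelial protein, was not above background in TonEBP +/-, and WT was at least 2.10-fold higher. The rest were the vomeronasal receptor genes Vmn1r157, Vmn1r115 and Vmn1r149 and the predicted gene Gm21943, on the Y chromosome in RefSeq, with differences of -1.46 to -1.78. Genes of the Vmn1r family are near copies of each other, so their signals may come from shared probes and are uncertain. In all, 66 clusters had an adjusted p under 0.1, 32 higher and 34 lower.

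Cartilage matrix and chondrocyte genes, which describe the inner AF and the endplate, had a median difference of -0.65, which depended on the WT array left out. It was -1.16 without WT array 1 and -0.27 without WT array 3. Of 25 measured members, 1 (Acan) passed the adjusted test; 7 were lower and none higher at an unadjusted p under 0.05. The genotypes did not overlap in 3 lower and 2 higher members (12.0% and 8.0%), shares near those over all clusters (12.3% and 10.0%). Many of the others lay as low on WT array 1 as in TonEBP +/-. Cilp, cartilage intermediate layer protein, is an example, at 13.03, 16.35 and 16.31 in WT and 12.28, 13.84 and 11.91 in TonEBP +/- (-2.55, SE 0.80, adjusted p = 0.150). Prg4, the joint lubricant lubricin, read 16.77, 19.77 and 19.88 in WT against 16.24, 17.19 and 16.04 in TonEBP +/-. For both Cilp and Prg4, WT arrays 2 and 3 were high and WT array 1 was near the TonEBP +/- arrays. Prg4 was at or near the top of the scale on WT arrays 2 and 3, so its difference may be understated. Sox9, the transcription factor of chondrocytes, did not overlap: the lowest WT array read 13.66 and the TonEBP +/- arrays 13.45, 12.61 and 12.13 (difference -1.55, SE 0.44, adjusted p = 0.130). Col2a1, the type II collagen chain, read 8.81, 11.85 and 11.30 in WT and 10.71, 9.80 and 9.76 in TonEBP +/- and overlapped (-0.56, adjusted p = 0.697). For Acan, by contrast, WT array 1 was close to the other WT arrays.

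AF and tendon markers were lower in every one of the 13 measured members, with differences from -0.18 to -2.11 and a median of -0.57. Of these, 4 were above background on no AF array, and all such dim clusters had a median difference of -0.14. None passed the adjusted test, and 3 reached an unadjusted p under 0.05. All TonEBP +/- arrays lay below WT in 5 of 13, of which 2 (Scx and Kera) were not above background anywhere. Angptl7, a secreted angiopoietin-like protein, read 9.41, 10.92 and 11.09 in WT against 8.77, 9.19 and 9.31 in TonEBP +/-. The matrix glycoprotein Tnxb read 9.59, 9.33 and 8.64 against 7.79, 7.82 and 8.53, with 1 TonEBP +/- array above background. Comp, cartilage oligomeric matrix protein, overlapped, at 14.07, 16.96 and 16.88 in WT and 15.28, 14.64 and 13.85 in TonEBP +/-. As with cartilage genes, WT array 1 was the low WT array for Comp, and the mean of the list was 9.05 there, against 10.03 and 9.84 on WT arrays 2 and 3 and 8.88 to 8.91 in TonEBP +/-.

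The small leucine-rich proteoglycans bind collagen and growth factors. Of 12, 4 were lower and 1 higher at an unadjusted p under 0.05, none passed the adjusted test, and the median difference was -0.60. It was -1.35 without WT array 1 and -0.33 without WT array 2. Asporin (Aspn) read 8.84, 10.01 and 10.88 in WT and 7.90, 8.25 and 7.41 in TonEBP +/- (-2.06, SE 0.46, adjusted p = 0.105), with 1 TonEBP +/- array above background. Osteoglycin (Ogn) read 11.20, 12.89 and 13.00 against 11.10, 11.15 and 10.78. Lumican (Lum) went the other way, at 11.51, 10.80 and 11.10 in WT and 11.92, 13.17 and 13.20 in TonEBP +/- (1.62, SE 0.37, adjusted p = 0.105). The genotypes did not overlap for these 3 genes, although WT array 1 was close to the TonEBP +/- arrays for Ogn. Decorin (Dcn) read 16.75, 19.91 and 19.88 in WT, the latter at the top of the scale, and 17.21, 18.41 and 17.42 in TonEBP +/-, and its difference (-1.17) may be understated.

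Genes of type I collagen and its processing had a median difference of 0.31, against 0.18 over the 9235 brighter clusters. The median of the list was 0.16 without TonEBP +/- array 3 and 0.01 with control separation as a covariate in the fit. Of 23, none passed the adjusted test; 8 were higher and 2 lower at an unadjusted p under 0.05, and 9 lay higher on all TonEBP +/- arrays and 1 lower. The chains themselves were among the largest differences: Col1a1 read 14.87, 10.92 and 13.82 in WT and 17.17, 17.32 and 17.65 in TonEBP +/- (4.18, SE 0.77, adjusted p = 0.0961). Col1a2 read 16.35, 12.03 and 14.29 against 17.49, 18.64 and 17.64 (3.70, SE 0.83, adjusted p = 0.105). The TonEBP +/- arrays were uniformly high for both, while the WT arrays were spread widely, with WT array 2 the lowest. Serpinh1, the collagen chaperone Hsp47, differed by 1.56 (SE 0.37), and the crosslinking enzyme Lox by 1.21 (SE 0.37). Leprel1, a collagen prolyl hydroxylase, was lower, at 10.18, 11.22 and 10.56 in WT and 9.04, 9.51 and 9.56 in TonEBP +/-. Of 19 other collagens, Col5a2 was higher (1.30, SE 0.30) and Col6a2 lower (-1.09, SE 0.31), with non-overlapping genotypes and adjusted p of 0.105 and 0.130. In all, 2 of these 19 were higher and 1 lower at an unadjusted p under 0.05.

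Among 33 elastic fibre and matricellular genes, 4 were higher and 9 lower at an unadjusted p under 0.05, and none passed. Fibronectin (Fn1), the main adhesive glycoprotein of the matrix, read 17.04, 17.98 and 17.77 in WT and 15.81, 16.31 and 15.95 in TonEBP +/- (-1.57, SE 0.31, adjusted p = 0.102). Versican (Vcan), a large proteoglycan, read 12.16, 13.11 and 14.14 against 10.99, 11.75 and 11.94 (-1.58, SE 0.46). In the other direction from Fn1 and Vcan stood Tnc and periostin (Postn). Postn was below background in WT and read 8.85, 8.08 and 8.44 in TonEBP +/-, at least 1.54-fold higher. Of 27 enzymes of glycosaminoglycan synthesis, 4 were higher and 2 lower, all without a call. The chain-starting enzyme Xylt1 read 13.01, 12.87 and 12.71 against 12.60, 11.61 and 11.38, and the chondroitin synthase Chsy1 differed by 0.85 (SE 0.27), each without overlap.

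Of 36 matrix proteases and inhibitors, Htra1 passed; 11 were higher and 3 lower at an unadjusted p under 0.05, and 8 lay higher on all TonEBP +/- arrays and 2 lower. Mmp14, a membrane-bound collagenase, read 7.67, 7.59 and 7.64 in WT, below background, and 9.39, 8.73 and 10.19 in TonEBP +/-, at least 3.03-fold higher. The gelatinase Mmp2 read 8.83, 8.14 and 8.64 against 9.38, 10.04 and 10.58 (1.46, SE 0.34). Mmp9, the gelatinase of osteoclasts and neutrophils, overlapped, at 14.21, 11.59 and 12.70 in WT and 15.21, 13.73 and 15.82 in TonEBP +/- (2.09, adjusted p = 0.146). The aggrecanase gene Adamts5 was not above background on any array, nor was Adamts4. Htra3, a relative of Htra1, read 8.54, 8.81 and 9.20 against 7.91, 7.56 and 7.89 and was not above background in TonEBP +/-.

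Mineralisation and osteoblast genes made up one of the lists with most higher members. Of 23, 17 were above background on all 3 arrays of a genotype, and Ibsp passed. At an unadjusted p under 0.05, 14 were higher and 1 lower. All TonEBP +/- arrays lay above WT in 12 and below in none. The share lying above was 10.0% over all clusters, and 1725 of 9235 over the brighter ones. The median difference of the list was 0.79. Sgms2, a sphingomyelin synthase needed for bone mineral, read 11.48, 9.91 and 11.01 in WT and 12.78, 12.21 and 12.74 in TonEBP +/- (1.78, SE 0.39, adjusted p = 0.105). Phex, an endopeptidase of osteocytes, read 7.89, 7.63 and 8.53 against 9.79, 8.83 and 10.14. Both separated the genotypes, with TonEBP +/- array 2 the lowest of its group. Osteocalcin (Bglap) read 12.11, 8.04 and 10.20 in WT and 12.19, 13.08 and 12.59 in TonEBP +/-, and its near copy Bglap2, which shares most of its sequence, read alike. Sp7, the osteoblast transcription factor, read 8.99, 8.62 and 9.28 against 10.46, 9.28 and 9.63 and just separated the genotypes (0.83, adjusted p = 0.245). Tnfrsf11b, the decoy receptor osteoprotegerin that limits osteoclast formation, was the lower member, at 11.45, 11.04 and 12.16 in WT and 11.14, 10.11 and 10.12 in TonEBP +/- (-1.09, adjusted p = 0.177). Col10a1, the collagen of hypertrophic cartilage, overlapped (-0.45, adjusted p = 0.776).

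Some markers of osteoclasts, the cells that resorb bone, read higher on all TonEBP +/- arrays. Of 16, none passed. At an unadjusted p under 0.05, 5 were higher and none lower, and 6 lay higher on all TonEBP +/- arrays. The share lying above was 10.0% over all clusters, and 1725 of 9235 over the brighter ones. Of the 16, 10 were above background on all 3 arrays of a genotype and 6 on no AF array. The median difference was 0.44, or 0.25 without TonEBP +/- array 3 and 0.20 with control separation as a covariate. Acp5, the tartrate-resistant acid phosphatase, read 12.43, 8.90 and 12.74 in WT and 15.30, 14.05 and 17.12 in TonEBP +/- (4.13, SE 0.96, adjusted p = 0.105). Atp6v0d2, a subunit of the proton pump, read 9.64, 7.43 and 9.34 against 11.55, 11.70 and 13.50 (3.45, SE 0.62, adjusted p = 0.0961). Ctsk, the collagen-cleaving protease cathepsin K, read 11.88, 7.18 and 10.74 against 12.92, 12.95 and 14.78 (3.62, SE 0.98). For all 3 genes WT array 2 was the lowest array and TonEBP +/- array 3 the highest. Calcr, Oscar and Dcstamp, also markers of osteoclasts, were not above background. The mean over the list was 9.15, 8.29 and 8.91 in WT against 9.64, 9.46 and 10.44 in TonEBP +/-, and the part of bone cells in the dissected AF in the results on bone matrix was not tested.

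**Figure D3:**
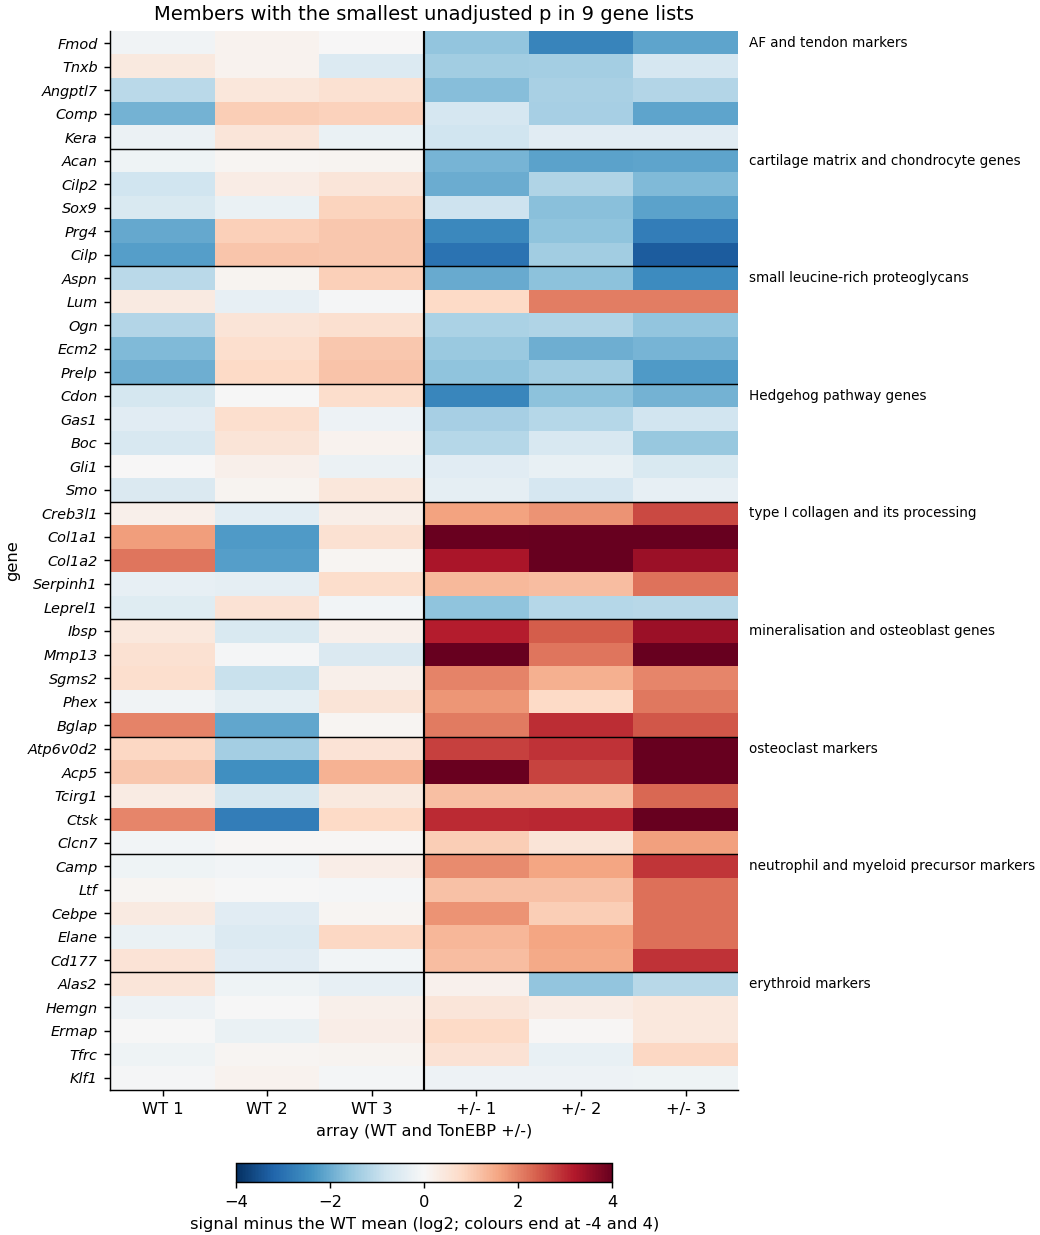
Signal on each AF array minus the WT mean of the gene, in log2, for the 5 members with the smallest unadjusted p of 9 lists; columns are arrays and colours end at -4 and 4. The members shown of the cartilage, AF marker and proteoglycan lists, other than Lum, are low on all TonEBP +/- arrays. Cilp, Prg4, Ecm2 and Prelp are also low on WT array 1. The bone and osteoclast genes shown are high on the TonEBP +/- arrays, as is Col1a1, a collagen of bone and of the outer AF. Members were picked by p, which favours genes that separate the genotypes. WT array 2 is the lowest array for Col1a1, Acp5 and Ctsk.

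Markers of blood-forming cells were examined because the samples held them. Of 17 neutrophil and myeloid precursor markers none passed. At an unadjusted p under 0.05, 13 were higher, and 15 lay higher on all TonEBP +/- arrays. The share lying above was 10.0% over all clusters, and 1725 of 9235 over the brighter ones, to which all 17 belong. The median difference of the list was 1.36, or 0.98 without TonEBP +/- array 3. It was 0.73 with equal medians and interquartile ranges and 0.79 with control separation as a covariate. Lactoferrin (Ltf), a granule protein, read 15.38, 15.28 and 15.25 in WT and 16.48, 16.46 and 17.52 in TonEBP +/- (1.52, SE 0.32, adjusted p = 0.104). Neutrophil elastase (Elane) read 15.17, 14.88 and 16.26 against 16.76, 17.01 and 17.63 (1.70, SE 0.38). Of 11 erythroid markers, none was at an unadjusted p under 0.05 in either direction, 1 lay higher and 1 lower without overlap, and the median difference was 0.06, with values of -0.06 to 0.17 as each array was left out. Alas2, the haem synthesis enzyme of red cell precursors, read 14.85, 14.20 and 14.03 in WT and 14.53, 12.79 and 13.25 in TonEBP +/-. Haemoglobin genes were not analysed here. The part of marrow or blood in the dissected tissue was not tested.

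Macrophage markers were mixed: of 19, 8 were higher and none lower at an unadjusted p under 0.05, while 5 lay higher and 2 lower without overlap. Csf1r, the receptor for macrophage colony-stimulating factor, read 9.79, 8.26 and 9.73 in WT and 10.74, 10.41 and 12.55 in TonEBP +/- (1.98, SE 0.56, adjusted p = 0.131). Of 13 endothelial markers, 3 were higher. Kdr, a receptor of vascular endothelial growth factor, was below background in WT and at least 2.71-fold higher in TonEBP +/-, at 8.57, 9.15 and 10.10. Cdh5 and Emcn, further endothelial markers, overlapped between genotypes. Of 12 B and plasma cell and 14 T and NK cell markers, 1 each was higher. Of 12 fibroblast markers, Fap, a protease of activated stromal cells, read 10.43, 10.55 and 11.13 in WT and 12.10, 12.33 and 12.31 in TonEBP +/- (1.54, SE 0.27, adjusted p = 0.0961).

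**Figure D4:**
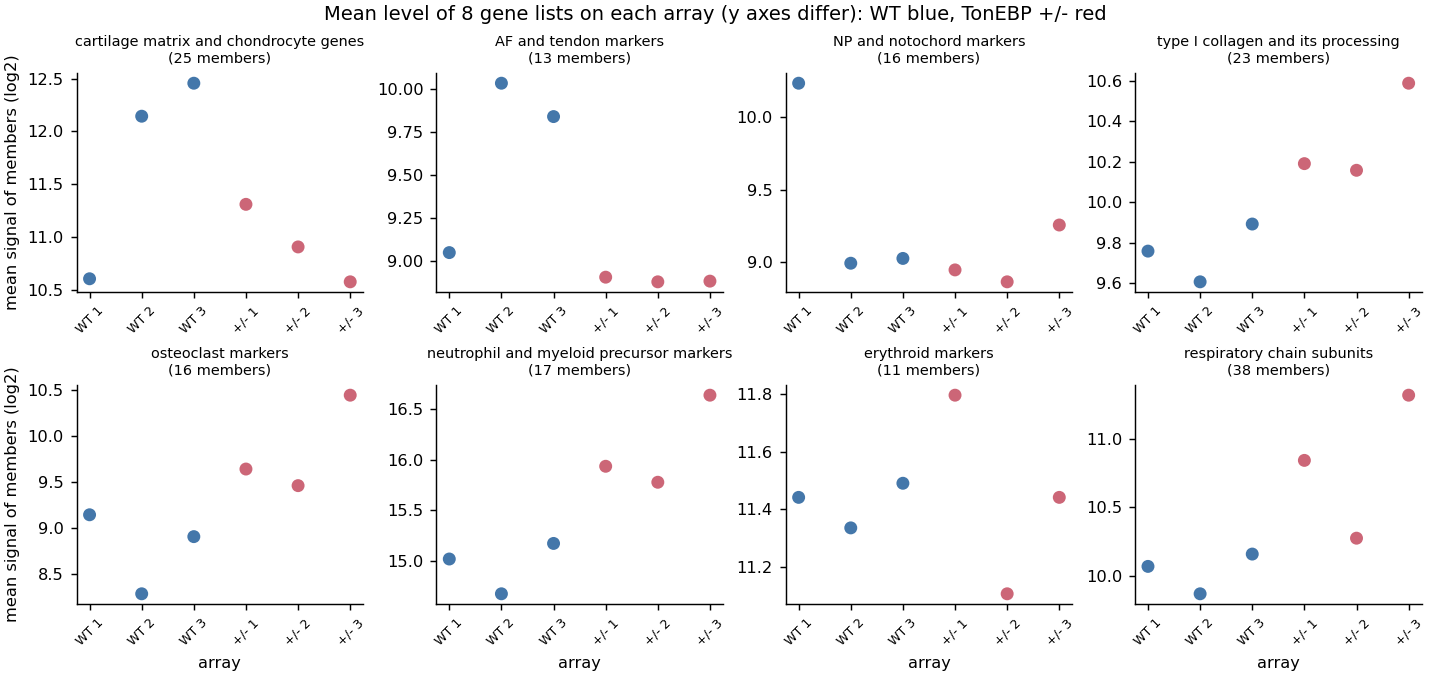
Mean log2 signal over the members of 8 gene lists on each AF array (WT blue, TonEBP +/- red); y axes differ between panels. WT array 1 is the low WT array for cartilage genes (10.60) and the high one for NP markers (10.23), and TonEBP +/- array 3 is the highest array for neutrophil markers (16.64) and respiratory chain subunits (11.32).

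Actin cytoskeleton and contractile genes, named in the title of the series, were mostly higher. Of 46, none passed, and 36 were above background on all 3 arrays of a genotype. At an unadjusted p under 0.05, 20 were higher and 1 lower, and 21 lay higher on all TonEBP +/- arrays and 2 lower. The share lying above was 10.0% over all clusters, and 1725 of 9235 over the brighter ones. The median difference of the list was 0.66, or 0.37 without TonEBP +/- array 3 and 0.18 with control separation as a covariate. Lasp1, an actin-binding adaptor, read 15.81, 14.91 and 15.04 in WT and 16.65, 16.39 and 17.00 in TonEBP +/- (1.43, SE 0.31, adjusted p = 0.105). Wdr1, which promotes filament disassembly, read 14.11, 14.10 and 13.97 against 15.15, 15.00 and 15.30 (1.09, SE 0.24), and Tpm1, a tropomyosin, differed by 1.27 (SE 0.32). Among the higher members were Lcp1 and Coro1a, actin regulators of leukocytes, with differences of 1.51 and 1.54. Smooth muscle actin (Acta2) overlapped, at 8.94, 7.74 and 7.55 in WT and 7.82, 7.24 and 8.15 in TonEBP +/-, above background on 1 array of each genotype. Actb was at the top of the scale on all 6 arrays and gives no difference. Of 29 integrin and focal adhesion genes, 8 were higher and 1 lower at an unadjusted p under 0.05. Vinculin (Vcl) and talin (Tln1), which link integrins to actin, differed by 1.10 (SE 0.31) and 0.93 (SE 0.27) without overlap.

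Inflammatory genes were mixed. Of 31 cytokines and receptors, 6 were higher and none lower at an unadjusted p under 0.05, 5 lay higher and 1 lower without overlap. The median difference was 0.13, and leaving out each array in turn gave -0.003 (without WT array 2) to 0.33 (without TonEBP +/- array 2). Il1b, interleukin 1 beta, read 15.31, 12.96 and 14.49 in WT and 14.96, 13.15 and 14.19 in TonEBP +/-, with complete overlap (-0.15, adjusted p = 0.923). Tnf and Il6 overlapped as well, with differences of 0.48 (adjusted p = 0.639) and 0.21 (adjusted p = 0.764), and Il6 was not above background. Il1rn, the interleukin 1 receptor antagonist, was higher on all TonEBP +/- arrays (1.48, SE 0.41, adjusted p = 0.127), as was Lifr, a receptor for leukaemia inhibitory factor (1.68, SE 0.39, adjusted p = 0.105). Of 34 chemokines and receptors, 5 were higher and 2 lower. Cxcl12, the chemokine that retains blood-forming cells in marrow, read 14.90, 12.74 and 14.14 in WT and 16.08, 16.66 and 18.24 in TonEBP +/- (3.07, SE 0.60, adjusted p = 0.102), and its receptor Cxcr4 differed by 1.46 (SE 0.29). Ccl2, a chemokine for monocytes, overlapped (-0.52, adjusted p = 0.418). Of 22 inflammatory mediators and NF-kB genes, 5 were higher and 1 lower, the latter being Sdc4, a heparan sulphate receptor, at 12.88, 13.56 and 14.85 in WT and 12.77, 11.86 and 11.63 in TonEBP +/-. Ptgs2 overlapped (-0.20, adjusted p = 0.916), and Nos2 was not above background. Of 28 interferon-stimulated genes 8 were higher and none lower, and of 14 MHC and antigen presentation genes 7 were higher and none lower, of which H2-Aa differed by 1.16 (SE 0.30).

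Most Wnt pathway genes were not above background. Of 33 Wnt pathway genes, 6 were above background on all arrays of a genotype and 19 on no AF array. At an unadjusted p under 0.05, 3 were lower and none higher. Dim clusters as a whole also lay lower more often than higher, with 1171 against 317 of 9906 without overlap. The receptor Fzd7 read 9.17, 9.66 and 9.71 in WT and 8.20, 8.48 and 8.76 in TonEBP +/- (-1.04, SE 0.28, adjusted p = 0.119). Of 11 Hedgehog genes, 4 were above background on no AF array. Without overlap, 5 lay lower and none higher. The median difference was -0.45, or -0.74 without WT array 1 and -0.23 without WT array 3. At an unadjusted p under 0.05, 3 were lower. The co-receptors Cdon, Boc and Gas1 were the 3: Cdon read 10.90, 11.58 and 12.28 in WT and 8.99, 9.96 and 9.69 in TonEBP +/- (-2.04, SE 0.38, adjusted p = 0.0961), Boc differed by -1.11 (SE 0.35) and Gas1 by -1.08 (SE 0.33). The ligand Shh, in the NP list, read 8.99, 8.97 and 8.88 against 8.18, 8.62 and 7.71 (-0.78, adjusted p = 0.203). Of 35 BMP and TGF-beta genes, 2 were higher and 5 lower; Grem1 was the clearest, at 11.15, 11.55 and 12.30 in WT and 10.20, 9.21 and 9.33 in TonEBP +/-.

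Genes of respiration and protein turnover read higher in most members, without a call. Of 38 respiratory chain subunits, 22 were higher and none lower at an unadjusted p under 0.05, and 18 lay higher without overlap. Their median difference was 0.82, or 0.32 with control separation as a covariate. Most members of these lists are bright, 35 of the 38 here. Over the 9235 brighter clusters, 1572 were higher at that p and 1725 lay higher without overlap, with a median difference of 0.18. Cox6c, a subunit of cytochrome oxidase, read 12.39, 12.43 and 12.27 in WT and 13.84, 13.53 and 14.05 in TonEBP +/- (1.44, SE 0.25, adjusted p = 0.0961). Of 31 lysosomal genes 14 were higher, of 26 proteasome subunits 13, of 28 cell cycle genes 17, and none in any of these 3 lists was lower. Of 26 endoplasmic reticulum folding genes, 6 were higher and 1 lower. Of 28 ribosomal protein genes, 1 was higher, with a median difference of 0.39, or 0.21 without TonEBP +/- array 3 and 0.67 without TonEBP +/- array 2. Of 29 hypoxia and glycolysis genes 2 were higher and 2 lower, and the median was 0.01 (-0.07 to 0.14 with each array left out), with Ndufa4l2 as the largest difference. Of 11 heat shock genes 2 were higher and 2 lower, and of 20 immediate early genes 1, Egr1, was lower (-1.19, SE 0.41, adjusted p = 0.180).

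The list medians depended to different degrees on single arrays and on control separation. The median of mineralisation genes ran from 0.68 to 0.99 as each array was left out, and that of AF markers from -0.68 to -0.42. That of the cartilage list was -0.59 without TonEBP +/- array 3 but -1.16 and -0.27 without WT arrays 1 and 3. Without TonEBP +/- array 3, the medians of respiratory chain, lysosomal and actin genes went from 0.82, 0.80 and 0.66 to 0.56, 0.43 and 0.37. With control separation as a covariate in the fit, which was chosen after seeing the data, the medians were 0.32, 0.13 and 0.18 for these 3 lists, 0.005 for endoplasmic reticulum genes and -0.12 for ribosomal protein genes. The same fit gave -0.67 for cartilage, -0.62 for AF markers, 0.65 for mineralisation and 0.79 for neutrophil markers. The part of control separation in each list cannot be told apart from that of genotype with 6 arrays.

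**Figure D5:**
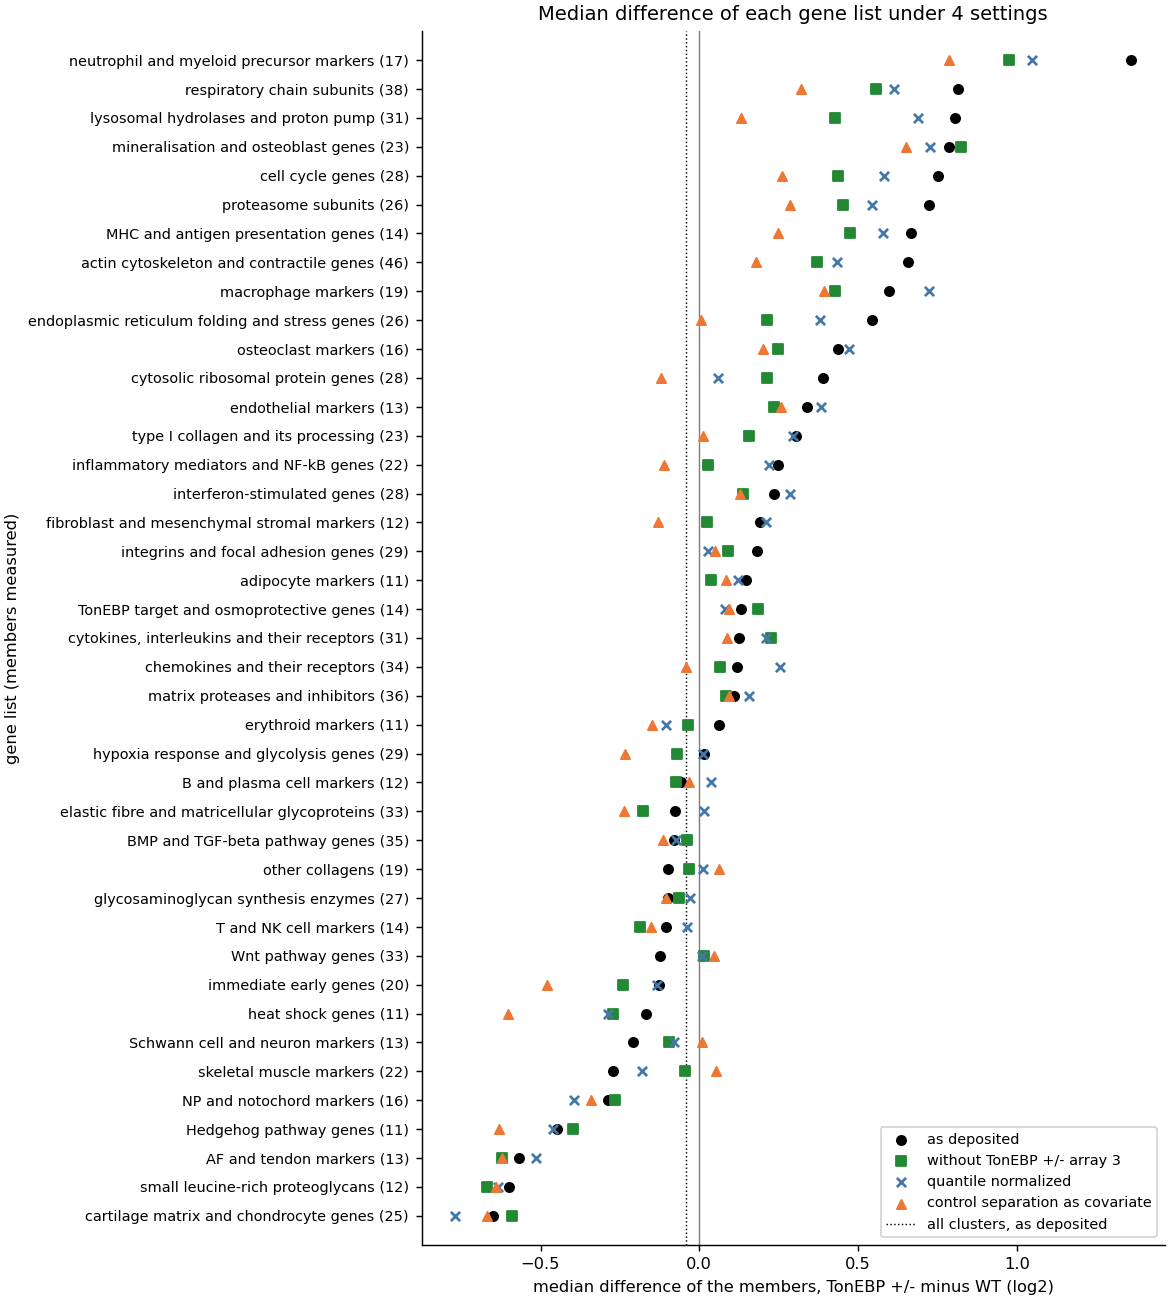
Median difference of the members of each of 41 gene lists, TonEBP +/- minus WT in log2, as deposited (black), without TonEBP +/- array 3 (green), after quantile normalization (blue) and with control separation as a covariate (orange); the dotted line is the median of all clusters (-0.04). The median of the 9235 brighter clusters, as deposited, was 0.18. Neutrophil, mineralisation, cartilage, proteoglycan and AF lists keep their side of 0 under all 4 settings. Others do too, among them respiratory chain, proteasome, cell cycle, MHC and Hedgehog genes, while ribosomal protein genes cross 0.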

How the data were processed

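Per the labels' protocols, RNA of AF from 6 mice was measured on Clariom S Mouse arrays. The deposited values are log2 signals made by the authors with Affymetrix Expression Console and RMA, per the submitters' processing notes. Versions, settings and the arrays normalized together are not given in the sources used here. Values stop at a ceiling near 19.9, so differences of genes at the ceiling are understated, and array number limits the precision. Of 28846 probe sets, 6640 controls were left out and 22206 clusters tested, of which 19572 have 1 symbol. A gene with several clusters was taken by its brightest. A linear model on the 6 AF arrays with eBayes (limma 3.58.1 in R 4.3.3, no trend, 4 residual degrees of freedom) gave differences, SEs and p-values, adjusted by Benjamini and Hochberg over all clusters. Fold limits for groups below background set each array at its background level. The fit was tested on simulated data. Tables and figures used Python 3.11.15 with pandas 2.3.3 and matplotlib 3.10.9.

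Members and the 41 gene lists were chosen with earlier results of these data known, so no list was tested as a set. Of 1017 listed genes 921 had a cluster. Named genes are Nfat5, all calls, then up to 12 in each direction by unadjusted p among clusters with 1 symbol, a difference of at least 1, genotypes without overlap and a level above background, members of the lists with the smallest p or that define them, and the 5 genes of largest SD per genotype or farthest on the wide array; 1 gene named by this rule is not reported here. Alternatives were other scalings, array weights, all 12 arrays, trend or robust moderation, a filter on dim clusters, leaving out each array, and, chosen after seeing the data, control separation as a covariate.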

Additional observations from a re-analysis of the deposited data

How the results depend on the processing

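Acan, Htra1 and Ibsp kept their direction under every setting tried, with ranks of p from 1 to 17. The number of calls did not hold: 3 as deposited became 0 with array medians subtracted (smallest adjusted p 0.0896), 6 with equal medians and interquartile ranges, 0 of 10100 with dim clusters left out, 1347 (612 higher, 735 lower) with all 12 arrays in the fit, 2147 with array weights and 0 with control separation as a covariate (2136 at an unadjusted p under 0.05). An unadjusted p under 0.05 with at least 1 log2 gave 1568. Leaving out each array in turn gave 0 to 1788 calls: 13 without AF WT array 1, 1788 without TonEBP +/- array 2, and 0 without each of the other 4. Clusters whose genotypes did not overlap numbered 4961. Leaving out each array gave 6326 to 10298, the most without TonEBP +/- array 2. Leaving out an array cannot lower this count, since fewer arrays must be separated, so the rise is no result. The filter on dim clusters, which tests fewer clusters, gave 3013 of 10100. The share of non-overlapping clusters that were higher was 44.97% as deposited, 54.12% with medians subtracted and 51.94% after quantile normalization. It was 55.38% with equal ranges and 57.38% without dim clusters. The cause of the shifts in calls and in this share was not tested. No paired analysis was possible because the replicate numbers are accession order and carry no pairing. With 3 arrays a genotype and 9906 clusters above background on no AF array, a p that misses the threshold does not show equal levels.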

Other observations

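The 5 genes of largest SD within each genotype, among clusters above background on all 6 arrays, are given as a description. Over the 3 WT arrays they were the neutrophil chemokine gene Cxcl2 (15.32, 9.13 and 12.98), the cartilage gene Cnmd (11.57, 15.55 and 16.62), Serpina1c, Car3 and Vit. Over the TonEBP +/- arrays they were the myelin gene Mbp (14.69, 8.30 and 8.18), Cxcl2, Apod, Il1r2 and Epx. Serpina1a and Serpina1c are near copies and their signals are uncertain.

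TonEBP +/- array 3 stood farthest above the mean of the other TonEBP +/- arrays in the eosinophil granule genes Epx, Ear6 and Prg2, in Ctsc and in Acp5. Epx read 11.99, 12.25 and 15.03 on TonEBP +/- arrays 1 to 3 and 12.51, 10.59 and 11.93 in WT, so that only this array was high. It stood farthest below in Mbp, Serpina1a, Apod, Gm20831 and Gm10408.

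Receptor families of the nose were described after their values were seen. Of 199 Vmn1r clusters, 74 lay lower on all TonEBP +/- arrays and none higher, with a median difference of -0.53, or -0.36 without TonEBP +/- array 3. Of 1080 Olfr clusters, 198 lay lower and 6 higher, with a median of -0.35. Only 45 and 22 of these were above background on all 6 arrays, and intron controls moved the same way (-0.21).

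The labels give no sex. Y-linked genes differed in direction. Uty read 8.18, 8.70 and 8.43 in WT and 8.47, 7.95 and 9.16 in TonEBP +/-, overlapping, and Eif2s3y read 7.66, 7.26 and 8.51 against 8.97, 8.82 and 9.93 (1.43, SE 0.39, adjusted p = 0.125). Kdm5d was not above background on any array. The predicted genes Gm21943 and Gm20831, also on the Y chromosome in RefSeq (GRCm38.p6), lay in the other direction from Eif2s3y. The brighter Gm21943 cluster read 12.53, 12.34 and 12.42 in WT against 10.89, 11.29 and 10.24 in TonEBP +/-, without overlap, and Gm20831 read 13.23, 13.49 and 12.46 against 11.87, 12.60 and 10.31, with overlap. For both predicted genes TonEBP +/- array 3 was the lowest array, as it was for the medians of the Vmn1r clusters and the intron controls. Whether their probes match other genes was not tested, so their signals are uncertain. The part of sex in the results was not tested.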
